A study of Homo sapiens with 6 samples.

Results

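The 9 genes *CTGF*, *CYR61*, *ANKRD1*, *AMOTL2*, *LATS2*, *AJUBA*, *YAP1*, *WWTR1* and *TEAD1*, which encode regulators and targets of the YAP and TEAD proteins, were taken by symbol from the 63677 genes of an RNA-seq count table. *CTGF* and *CYR61* are the older symbols of *CCN2* and *CCN1*. No expression value entered the choice rule, but the genes were picked with earlier results of these data known. RNA was sequenced from cultured cells labelled LoVo, a human colorectal cancer line, in 3 libraries after transfection for 48 h with a combination of both *SNHG15* siRNAs at 25 nM and in 3 libraries after a negative control siRNA, labelled scramble, at the same dose and time. *SNHG15* is a long non-coding RNA, and the comparison asks which genes change when it is depleted. Both conditions received siRNA with a transfection reagent, and no untransfected cells were compared. Because the 2 *SNHG15* siRNAs were given together, their effects cannot be told apart in these libraries. By qRT-PCR the paper reports *CTGF* among the genes deregulated by the siRNAs given singly or together. The study's methods call the replicates biological. A single line was used, so the p-values measure the spread between these cultures.

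The Hippo pathway is a kinase cascade that restrains cell growth. MST kinases activate the LATS kinases, which phosphorylate the co-activators YAP (from *YAP1*) and TAZ (from *WWTR1*) and keep them out of the nucleus. Unphosphorylated YAP and TAZ bind the TEAD transcription factors and switch on genes such as *CTGF*, *CYR61* and *ANKRD1*, and in intestinal epithelium they are known for their part in regeneration and in colorectal tumor growth. AMOTL2, LATS2 and AJUBA act on the pathway, and *AMOTL2* and *LATS2* are also among its transcriptional targets, which gives a negative feedback. Phosphorylation and location of YAP are protein measures that RNA counts do not show.

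Library totals lay between 3446922 and 10256710 counts, with the smallest in scramble replicate 3. *SNHG15* was at 290, 277 and 261 CPM (read counts scaled to a common library size) in the scramble libraries and at 77.2, 83.1 and 87.2 CPM in the siRNA libraries, a log2 fold change of -1.74 (SE 0.12, edgeR adjusted p = 2.62e-05). On the first principal component of all tested genes (45.2% of the variance) siRNA replicate 1 stood farthest from the scramble libraries, at 40.5 against 16.0 and 13.3 for the other siRNA libraries and -29.3 to -16.9 for scramble. On the second component scramble replicate 3 lay farthest out at -28.9, followed by siRNA replicate 1 at -20.3, with the other 4 libraries at 8.51 or above. The cell label was checked against 10 intestinal epithelial markers. *KRT8*, *KRT18* and *CDX2* were present at 46.4, 23.9 and 27.9 CPM in scramble, *CDH1* was low at 7.52 CPM, and *KRT19*, *KRT20* and *VIL1* had 0 counts in all 6 libraries. *EPCAM* and *CEACAM5* had at most 1 count in any library and *LGALS4* at most 4, where a count of 0 allows up to 3 counts, which is 0.298 to 0.907 CPM depending on the library. LoVo is known as an epithelial line that expresses EPCAM and CEACAM5. *ZEB1*, a repressor of epithelial genes that was added after the values were seen, was at 181 CPM in scramble. The epithelial markers absent or near 0 and *ZEB1* go against the label, while *KRT8*, *KRT18* and *CDX2* do not. The samples are therefore called the libraries labelled LoVo. The epithelial markers, a sum carried by *KRT8*, *KRT18* and *CDX2*, summed to 102 to 110 CPM in scramble and 106 to 117 CPM in siRNA libraries. *CDH1*, which encodes the junction protein E-cadherin, was at 6.45, 8.55 and 7.56 CPM in scramble and at 3.05, 5.18 and 5.05 CPM in siRNA libraries, without overlap (log2 fold change -0.76, SE 0.25, edgeR adjusted p = 0.0945), and its part in the results was not tested. The 8 fibroblast markers summed to 0.352 to 0.796 CPM in scramble and 0.719 to 1.25 CPM in siRNA libraries. The 6 immune and endothelial markers found summed to 0 to 0.298 CPM in scramble and 0 to 0.277 CPM in siRNA libraries.

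The promoters of the target genes are shown first because TEAD proteins bind the core letters GGAATG. RefSeq promoter windows, 300 bases long with 250 of them before a transcription start (RefSeq on GRCh38.p14), were found for 7 of the 9 genes, 3 of them with a pair of starts, and each window has 1 exact match in GRCh37, whose coordinates are given here. *CYR61* and *TEAD1* had no entry. The bases before the start read, 5′ to 3′ along the gene's strand with the TEAD core in capitals:
CTGF, chr6:132272513-132272762, minus strand: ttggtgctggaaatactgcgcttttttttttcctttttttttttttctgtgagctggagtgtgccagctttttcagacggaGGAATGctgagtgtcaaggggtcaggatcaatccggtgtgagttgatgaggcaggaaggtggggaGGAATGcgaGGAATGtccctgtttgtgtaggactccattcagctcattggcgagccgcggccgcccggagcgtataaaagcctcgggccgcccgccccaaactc
ANKRD1, chr10:92680845-92681094, minus strand: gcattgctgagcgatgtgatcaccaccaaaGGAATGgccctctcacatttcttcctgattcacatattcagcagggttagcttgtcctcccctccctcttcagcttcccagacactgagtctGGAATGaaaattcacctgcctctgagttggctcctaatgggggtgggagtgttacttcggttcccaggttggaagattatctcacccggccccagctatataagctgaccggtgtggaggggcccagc
The *CTGF* promoter holds the core 3 times, beginning at positions -169, -104 and -95 from the start. The *ANKRD1* promoter holds it 2 times, beginning at -220 and -128. Among 35116 RefSeq promoter windows of the same length, 14% held the core at least 1 time on either strand, 1.37% at least 2 times and 0.128% (45 windows) at least 3 times. For the 4 other genes that hold 1 copy, a window of 30 bases around it reads:
AMOTL2 (second start), chr3:134093341-134093370, minus strand: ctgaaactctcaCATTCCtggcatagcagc
LATS2, chr13:21635699-21635728, minus strand: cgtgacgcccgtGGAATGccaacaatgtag
AJUBA (second start), chr14:23446093-23446122, minus strand: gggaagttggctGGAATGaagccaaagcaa
YAP1, chr11:101981004-101981033, plus strand: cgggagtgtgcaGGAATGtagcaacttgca
The *AMOTL2* copy reads CATTCC because the core lies on the opposite strand, at -69 from the second start. The *LATS2* copy begins at position 10, after the start and not before it. Those of *AJUBA* (second start) and *YAP1* begin at -59 and -162. The first starts of *AMOTL2* and *AJUBA* and both starts of *WWTR1* held no copy. The CArG box of the serum response factor, another motif known from growth-responsive genes, was searched on both strands by its name and was found in none of the 10 windows, against 1.29% of all windows. A match describes the letters only, and no binding was measured.

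**Figure D1:**
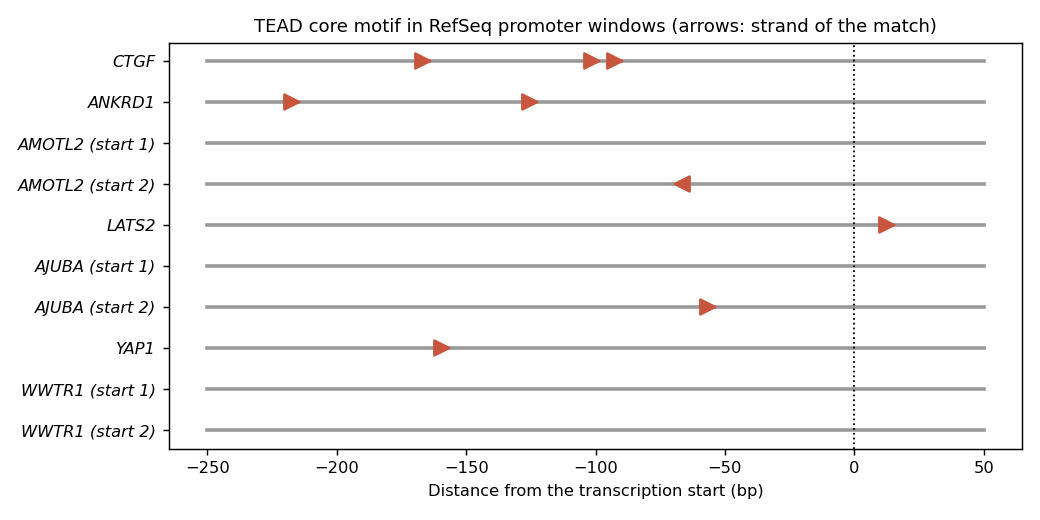
Positions of the TEAD core in the RefSeq promoter windows of 7 of the genes, with distance from the transcription start in bp on the x axis and 1 line for each start; arrows give the strand of the match. *CTGF* has 3 copies and *ANKRD1* 2, while 4 windows have none.

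Of the 8 genes tested, *CTGF* and *CYR61*, which encode secreted matrix proteins, had the lowest log2 fold changes. Those of *CYR61* (-1.27, SE 0.20) and *AMOTL2* (-1.14, SE 0.19) were close, so an order between them is not shown. *CTGF* (ENSG00000118523, chr6:132269316-132272512 in GRCh37) encodes connective tissue growth factor, and its counts were 67, 105 and 32 in scramble and 13, 17 and 38 in siRNA libraries, or 7.85, 10.4 and 9.68 CPM against 1.80, 2.45 and 4.46 CPM. The conditions did not overlap, and siRNA replicate 3 came nearest to the scramble libraries. The level fell from 9.32 ± 1.33 to 2.90 ± 1.39 CPM (mean ± SD, n = 3 each), so that 31.1% of the scramble level remained, a log2 fold change of -1.65 (SE 0.30, edgeR quasi-likelihood test, adjusted p = 0.00823). The call was lost without scramble replicate 2, the deepest library (-1.53, adjusted p = 0.0637). The antisense gene *LINC01013*, which shares 278 bp of exon with *CTGF*, had 0 counts in all libraries.

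*CYR61* (ENSG00000142871, chr1:86046444-86050272) encodes the related matricellular protein CCN1, a ligand of integrins. It stood at 447, 494 and 376 CPM in scramble and at 119, 214 and 212 CPM in siRNA libraries. The conditions were far apart, and siRNA replicate 1 was the lowest library. Means of 439 ± 59.4 and 182 ± 54.7 CPM (SD, n = 3) gave a fall of -1.27 on the log2 scale (SE 0.20, edgeR adjusted p = 0.00509), and the call held with each library left out (-1.40 to -1.05). Within a library the ratio of *CTGF* to *CYR61* counts, which does not depend on depth or scaling, was -5.83, -5.56 and -5.28 on the log2 scale in scramble and -6.04, -6.45 and -5.57 in siRNA libraries. These ratios overlapped, and their means differed by -0.46 (two-sided exact permutation test, p = 0.2, where 0.1 is the smallest p that 3 against 3 allows). A larger fall of *CTGF* than of *CYR61* was therefore not shown.

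*ANKRD1* (ENSG00000148677, chr10:92671853-92680844), which encodes a stress-responsive ankyrin repeat protein and is a widely used YAP reporter gene, was hardly detected. Its counts were 6, 6 and 0 in scramble and 1, 4 and 1 in siRNA libraries. It did not pass the filter on low counts, the libraries overlapped, and no difference was detectable at this depth. The 0 in scramble replicate 3, the shallowest library, allows up to 0.907 CPM, which is above the level in each of the other 5 libraries.

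Of the 3 genes that act back on the pathway, *AMOTL2* changed. AMOTL2 is an angiomotin family protein that binds YAP at cell junctions (ENSG00000114019, chr3:134074189-134094321). It stood at 56.2, 63.6 and 39.9 CPM in scramble and at 19.5, 27.6 and 26.2 CPM in siRNA libraries, with no overlap. The siRNA mean of 24.5 ± 4.31 CPM was 45.9% of the scramble mean of 53.2 ± 12.1 CPM (SD, n = 3). The fall was -1.14 on the log2 scale (SE 0.19, edgeR adjusted p = 0.00575) and stayed past the threshold with each library left out (-1.30 to -0.99). Its paralogs were barely present, *AMOT* with 3 to 6 counts and *AMOTL1* with 1 to 3 counts in every library.

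*LATS2* (ENSG00000150457, chr13:21547175-21635725), the kinase that phosphorylates YAP and TAZ, was at 9.96, 16.6 and 13.3 CPM in scramble and at 11.4, 14.1 and 11.9 CPM in siRNA libraries. The siRNA values lay inside the scramble range (log2 fold change -0.10, SE 0.21, edgeR adjusted p = 0.807). Its paralog *LATS1* was at 29.6 ± 2.69 and 26.2 ± 4.73 CPM (-0.19, SE 0.16, edgeR adjusted p = 0.533). *AJUBA* (ENSG00000129474, chr14:23440386-23451760), a LIM domain adaptor that binds LATS and limits its activity, stood at 30.5, 36.6 and 40.2 CPM in scramble and at 22.0, 31.5 and 25.3 CPM in siRNA libraries. Only siRNA replicate 2 reached into the scramble range, and the log2 fold change of -0.43 (SE 0.17) passed at an unadjusted p of 0.0233 in edgeR and not after adjustment (adjusted p = 0.149). The other LIM adaptors of this family did not pass either: *LIMD1* gave -0.16 (SE 0.16, edgeR adjusted p = 0.601) and *WTIP*, at 4 to 23 counts, gave -0.30 (SE 0.41, edgeR adjusted p = 0.710).

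The co-activators themselves did not pass the test. *YAP1* (ENSG00000137693, chr11:101981178-102104155) was at 27.0, 34.9 and 23.3 CPM in scramble and at 13.9, 21.3 and 20.4 CPM in siRNA libraries. The 2 conditions did not overlap, and siRNA replicate 1 was again the lowest. The log2 fold change was -0.64 (SE 0.20, edgeR adjusted p = 0.0761), and the adjusted p was 0.00782 only in the fit with no filter on low counts. *WWTR1* (ENSG00000018408, chr3:149235022-149454501) was at 61.5, 64.3 and 52.9 CPM in scramble and at 50.5, 55.7 and 54.3 CPM in siRNA libraries, which overlapped (-0.16, SE 0.13, edgeR adjusted p = 0.491). Its antisense gene *WWTR1-AS1* had at most 3 counts. The ratio of *YAP1* to *WWTR1* counts within a library was -1.19, -0.88 and -1.18 on the log2 scale in scramble and -1.86, -1.39 and -1.41 in siRNA libraries. All siRNA ratios lay below all scramble ratios, with a difference of -0.47 (two-sided exact permutation test, p = 0.1, the smallest that 3 against 3 allows).

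*TEAD1* (ENSG00000187079, chr11:12695968-12966284), a DNA-binding partner of YAP and TAZ, was at 36.1, 43.3 and 31.8 CPM in scramble and at 30.1, 32.4 and 33.8 CPM in siRNA libraries, and the conditions overlapped (-0.22, SE 0.15, edgeR adjusted p = 0.413). Of its paralogs, *TEAD4* was at 56.4, 60.1 and 62.0 CPM in scramble and at 48.4, 35.2 and 33.5 CPM in siRNA libraries. These values did not overlap, and *TEAD4* was called lower (-0.61, SE 0.16, edgeR adjusted p = 0.0423). That call was kept when siRNA replicate 1 was left out and lost without any other library (adjusted p up to 0.15). *TEAD3* was at 31.3 ± 3.78 and 31.0 ± 5.37 CPM (-0.02, SE 0.16, edgeR adjusted p = 0.965), and *TEAD2* had 1 to 13 counts and was not tested. Per kilobase of exon, *TEAD4* was the most abundant TEAD gene in scramble, at 26.1 ± 1.26 CPM per kb, against 10.3 ± 1.24 for *TEAD3*, 3.46 ± 0.543 for *TEAD1* and 0.226 ± 0.247 for *TEAD2*, with no overlap between neighbours in this order. The VGLL cofactors compete with YAP for TEAD. *VGLL1*, *VGLL2* and *VGLL3* had 0 counts in all libraries, and *VGLL4*, a known repressor of TEAD, was at 4.0 ± 0.63 and 5.66 ± 0.898 CPM (0.45, SE 0.24, edgeR adjusted p = 0.289).

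**Figure D2:**
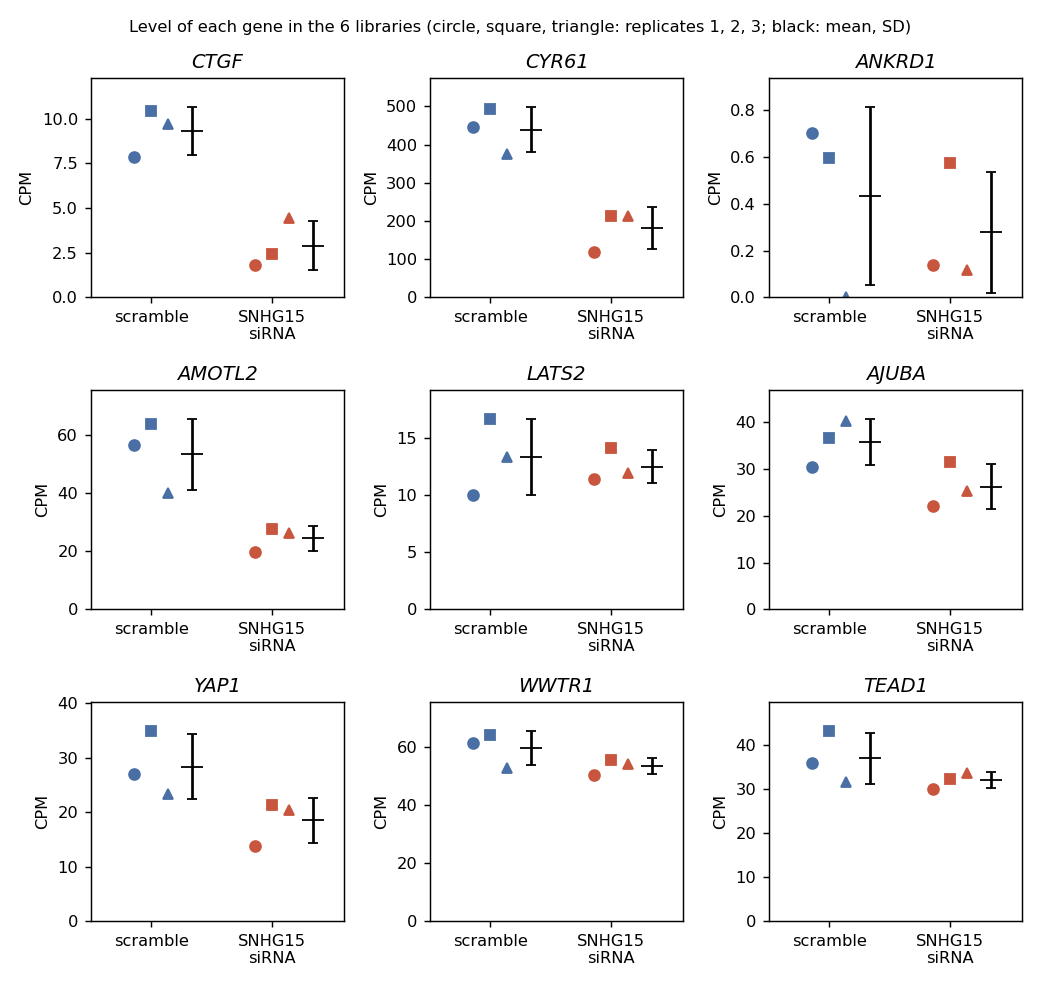
Level of each of the 9 genes in CPM (y axis, a scale of its own in each panel) in the 3 scramble and the 3 *SNHG15* siRNA libraries; points are libraries and black bars the mean ± SD. *CTGF*, *CYR61*, *AMOTL2* and *YAP1* do not overlap between conditions, and the other 5 genes do.

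In all, 3 of the 8 tested genes were called lower and 0 higher, where 2.23% of 12507 tested genes were called lower, 3.13% higher and 5.36% in either direction. All 8 log2 fold changes were negative (median -0.54, range -1.65 to -0.10), as were 6247 of the 12507, whose median was 0.0005. The conditions did not overlap for 4 of the 8 genes, against 28.8% of all tested genes. The RNA came from whole cultures, so fewer cells with a gene active and less RNA per cell cannot be told apart. *CTGF*, *CYR61* and *AMOTL2* kept their calls without siRNA replicate 1, with log2 fold changes of -1.40, -1.05 and -1.02 (edgeR adjusted p = 0.00946, 0.000834 and 0.00430), and without scramble replicate 3, with -1.63, -1.38 and -1.30 (edgeR adjusted p = 0.0373, 0.0178 and 0.0101). These are the libraries that stood farthest out on the principal components.

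**Figure D3:**
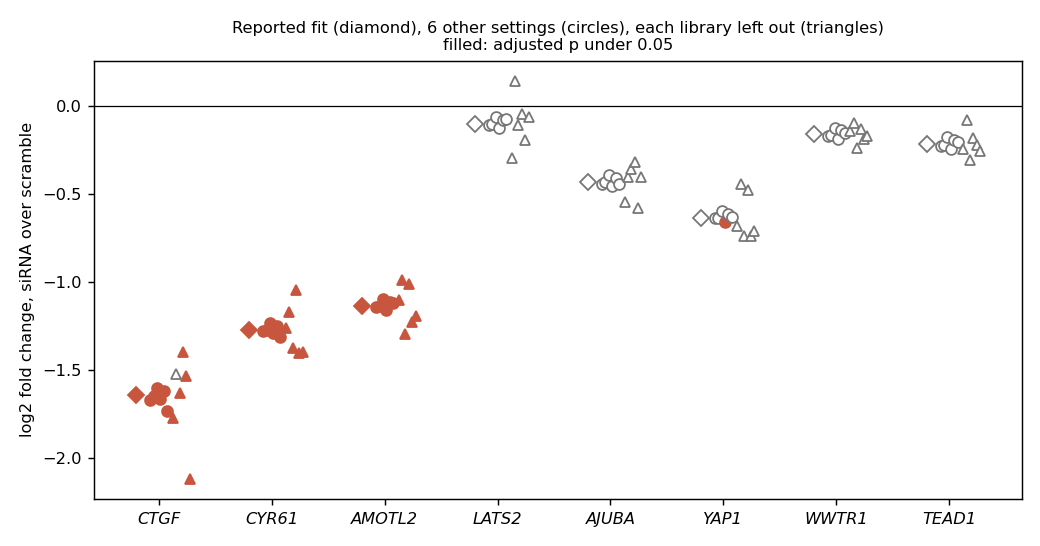
Log2 fold change (y axis, siRNA over scramble) of the 8 tested genes in the reported fit (diamond), in 6 fits with another tool, scaling, filter or block (circles) and with each library left out (triangles); filled marks have an adjusted p under 0.05. *CYR61* and *AMOTL2* are filled throughout, *CTGF* in all but 1 fit, and *LATS2* crosses 0 in 1 fit.

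The genes also differed from each other in level. Per kilobase of exon, *CYR61* was the highest in scramble at 119 ± 16.1 CPM per kb, 14.4 times *AMOTL2* at 8.22 ± 1.87. *WWTR1* (7.13 ± 0.708), *AJUBA* (6.08 ± 0.838), *YAP1* (4.50 ± 0.942), *CTGF* (3.99 ± 0.570) and *TEAD1* (3.46 ± 0.543) followed, and from *AMOTL2* to *TEAD1* each gene overlapped its neighbour. *LATS2* (2.37 ± 0.592) and *ANKRD1* (0.242 ± 0.212) lay lower, each without overlap with the gene above. In siRNA libraries *CYR61* was still the highest at 49.1 ± 14.8 CPM per kb, followed by *WWTR1* at 6.40 ± 0.322, while *AMOTL2* stood at 3.77 ± 0.665 and *CTGF*, at 1.24 ± 0.594, lay below *LATS2* at 2.22 ± 0.259 with no overlap.

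The lowest and the highest libraries were often the same across these genes. siRNA replicate 1 was the lowest siRNA library for 8 of the 9 genes, scramble replicate 2 the highest scramble library for 7 and scramble replicate 3 the lowest for 6. Over the 6 libraries the log2 levels of all 28 pairs of tested genes correlated positively, from 0.25 for *CTGF* with *LATS2* to 0.98 for *CYR61* with *AMOTL2*. After removal of the condition means, 27 of the 28 remained above 0. The values ran from -0.01 for *AJUBA* with *WWTR1* to 0.98 for *AMOTL2* with *WWTR1*. *CYR61* correlated at 0.93 with *YAP1*, 0.86 with *AMOTL2* and 0.67 with *CTGF*. *CTGF* correlated at only 0.38 with *AMOTL2* and 0.23 with *WWTR1*. These are descriptions over 6 libraries that share their scaling. All 8 tested genes had negative log2 fold changes, which by itself raises their correlations over the 6 libraries. siRNA replicate 1 and scramble replicate 3 also stood apart over all tested genes. Correlations of other gene pairs were not computed, so the values do not set these genes apart from others. The genes whose log2 CPM was most like that of *CTGF*, among 8543 tested genes with a mean of at least 10 CPM, were *H2AZ1*, *EEF1AKMT2*, *ZSCAN32*, *CDK1* and *MBD2*, with Pearson correlations of 0.995 to 0.997 over the 6 libraries. Their log2 fold changes lay between -0.93 for *EEF1AKMT2* and -0.44 for *CDK1*, and *H2AZ1*, *EEF1AKMT2* and *MBD2* passed the test (edgeR adjusted p = 0.0240, 0.00911 and 0.0210). The correlations named were the highest of 8543 over only 6 libraries. After removal of the condition means they were 0.977 for *MBD2* to 0.984 for *H2AZ1*. Picking the highest of so many raises such values, by an amount that was not computed. Shared regulation with *CTGF* was not tested.

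Other targets did not move as one group. Of 17 further conserved YAP and TAZ targets, 12 were tested, 2 were called lower and 1 higher, and their median log2 fold change was -0.26. Of all tested genes, 2.23% were called lower and 3.13% higher. In this list 6 of the 12 had an unadjusted edgeR p under 0.05, in both directions, against 22.5% of all tested genes. The conditions did not overlap for 6 of the 12, against 28.8%. *GADD45A*, a stress and growth arrest gene, was at 795, 1132 and 689 CPM in scramble and 148, 310 and 355 CPM in siRNA libraries, a fall with no overlap (-1.69, SE 0.27, edgeR adjusted p = 0.00548) that held with each library left out. *ASAP1*, a GTPase-activating protein of focal adhesions, fell from 62.3 ± 6.04 to 40.8 ± 4.91 CPM (-0.61, SE 0.14, edgeR adjusted p = 0.0259). *PTPN14*, a phosphatase that restrains YAP, rose from 16.8 ± 1.04 to 26.6 ± 2.88 CPM (0.65, SE 0.15, edgeR adjusted p = 0.0274). In a second list of 10 targets drawn from cancer and growth factor biology, which includes *CCND1*, 5 were tested, 0 were called by edgeR or by DESeq2, 0 had an unadjusted edgeR p under 0.05 (22.5% of all tested genes did), and the median was -0.01.

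Of the 4 remaining CCN genes only 1, *NOV*, was tested. It was called higher, the opposite direction to *CTGF* and *CYR61*, where 3.13% of all tested genes were called higher. That call was kept in 1 of the 6 fits with a library left out. *NOV* (*CCN3*) was at 14.1, 19.2 and 15.4 CPM in scramble and at 20.2, 28.9 and 34.9 CPM in siRNA libraries, and was called higher (0.78, SE 0.21, edgeR adjusted p = 0.0452). *WISP1* had 0 counts, *WISP2* at most 1, and *WISP3* between 1 and 14 counts, and none of these 3 was tested.

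Upstream of YAP, 19 of 20 listed Hippo kinases and adaptors were tested, 1 was called higher and 0 lower, and their median was -0.01. Of all tested genes 5.36% were called in either direction, so 1 call among 19 is near the general share. The gene called was *TAOK3*, a kinase that can activate the MST kinases, which rose from 11.6 ± 2.69 to 21.6 ± 3.96 CPM (0.84, SE 0.20, edgeR adjusted p = 0.0258). Of 18 junction and polarity regulators, 13 were tested and 0 were called by edgeR (median -0.16), and 4 of the 13 had an unadjusted p under 0.05, against the same 22.5% of all tested genes. DESeq2 called 1. *ASAP1*, *PTPN14* and *TAOK3* lost the call without any 1 scramble library and without siRNA replicate 2, with adjusted p up to 0.139, 0.110 and 0.0897, and *NOV* lost it also without siRNA replicate 3, with adjusted p up to 0.176.

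**Figure D4:**
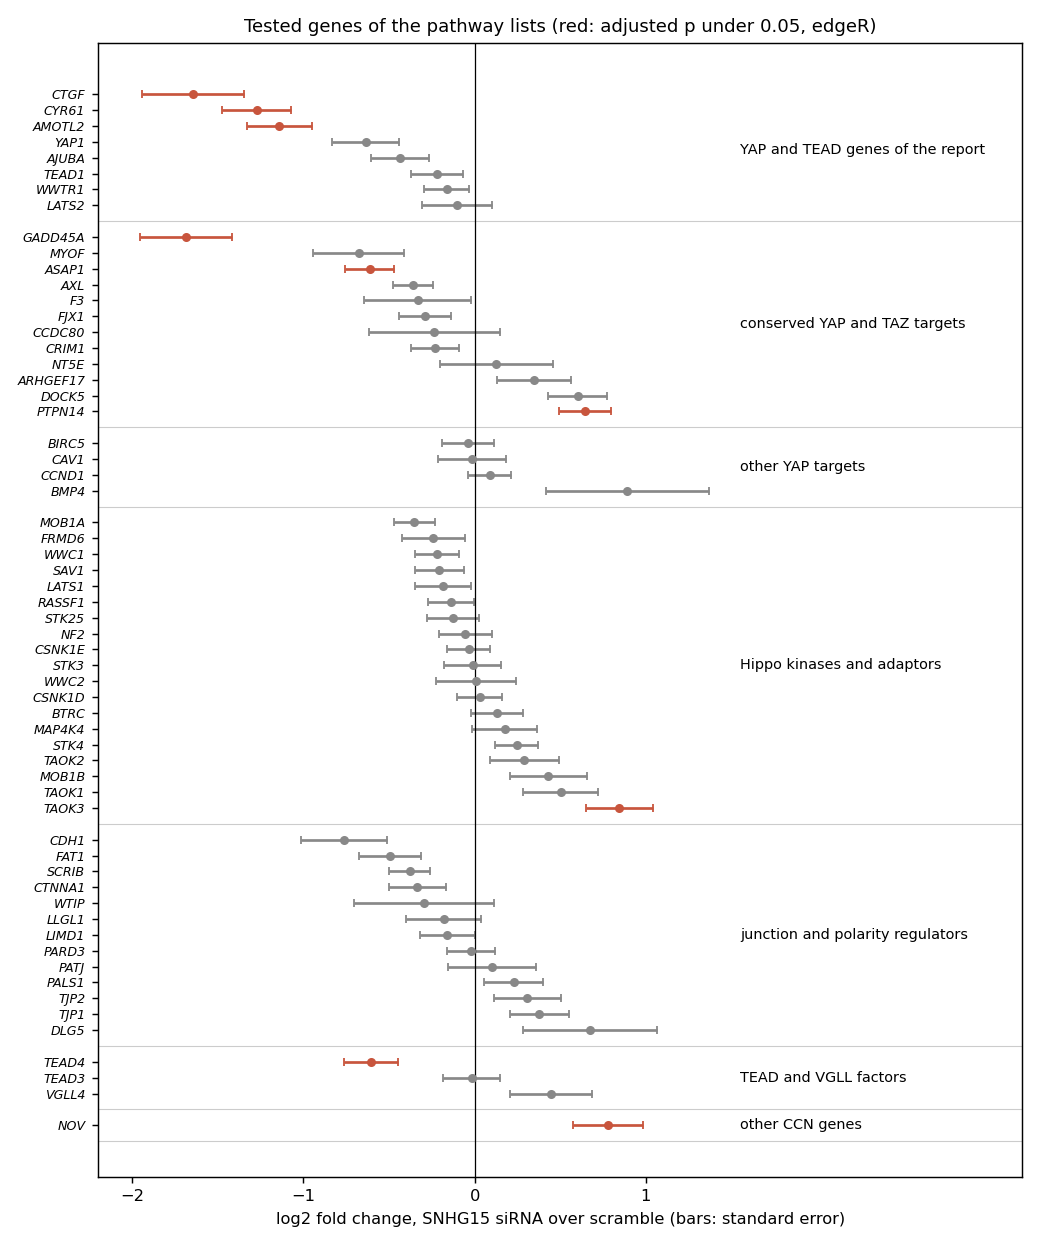
Log2 fold change (x axis, siRNA over scramble) with its standard error for the tested genes of the pathway lists, grouped by list, with 1 gene of the list of other YAP targets not drawn; red marks an edgeR adjusted p under 0.05. *CTGF*, *CYR61*, *AMOTL2*, *GADD45A*, *ASAP1* and *TEAD4* are red on the lower side and *PTPN14*, *TAOK3* and *NOV* on the higher side.

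The 3′ UTRs of the 9 genes were searched for matches to the seeds of the *SNHG15* siRNAs, bases 2 to 8 of each guide strand, because a seed match can lower an unintended transcript. The match to siRNA 1 reads ATGTTCA and was in 16.1% of 10495 tested genes with a 3′ UTR, and the match to siRNA 2 reads CACAGCA and was in 16.9%. The windows of the 2 genes without overlap between conditions that hold a match read, 5′ to 3′ along the transcript with the match in capitals:
CTGF, siRNA 2: ctacattagtaCACAGCAccagaatgtat
YAP1, siRNA 1: tgcccagttaaATGTTCAccaatcatttt
YAP1, siRNA 2: atgcttcatgtCACAGCAtttagtttgtt
*CYR61*, *AMOTL2* and *AJUBA* held no match to either seed. *LATS2* held 1 to siRNA 2, and *ANKRD1*, *WWTR1* and *TEAD1* held 1 each to siRNA 1. The searched 3′ UTRs ran from 770 bases for *ANKRD1* to 7515 for *TEAD1*, and a longer one has more places for a match. The other strand of each siRNA and the control siRNA were not searched. The part of seed matches in the changes was not tested.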

How the data were processed

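RNA was sequenced from 6 cultures (TruSeq Stranded mRNA, 75 bp paired-end). The authors deposited whole-number counts per Ensembl gene, which were not normalized. The submitters' processing notes name STAR and featureCounts with hg19, while the paper's methods name bowtie2 with hg19. Counting settings, annotation and use of strand are not given in the sources used here, so reads of overlapping genes may be shared. Groups and replicate numbers came from the labels, and 0 columns were left unassigned.

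Genes were filtered with filterByExpr (minimum count 10, total 15), scaled with TMM and tested with edgeR 4.0.16 in R 4.3.3 (quasi-likelihood test, no block). Calls used a Benjamini-Hochberg adjusted p under 0.05 over 12507 genes, and the standard error is the fold change divided by the root of F. CPM used the scaled library sizes, and levels per kb used the union exon length of GENCODE 44 on GRCh37. DESeq2 1.42.0, RLE and upper-quartile factors, other filters, a replicate block and leaving out each library were alternatives. The steps were tested on simulated data. Floors of 3 counts cover counting error only.

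The 9 genes and the lists (conserved and other YAP targets, Hippo kinases and adaptors, junction and polarity regulators, TEAD and VGLL factors, CCN genes, epithelial, fibroblast, immune and endothelial markers) were chosen with earlier results of these data known, from general knowledge. Named genes were the 9 genes, *SNHG15*, up to 3 called genes with the smallest p of each list, all TEAD, VGLL and CCN genes, the paralogs *LATS1*, *AMOT*, *AMOTL1*, *LIMD1* and *WTIP*, and the 5 genes most like *CTGF*. *ZEB1* and the list member *CCND1* were named after values were seen. Values of 1 listed gene are not reported here, although it stays in the counts of its list. *PECAM1* was not matched.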

Additional observations from a re-analysis of the deposited data

How the results depend on the processing

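*CYR61*, *AMOTL2* and *GADD45A* kept direction and call under all 12 other fits. *CTGF* did so except without scramble replicate 2, and *LATS2* changed sign there (range -0.30 to 0.14 with libraries left out). With libraries left out, calls ranged from 2 to 3 of the 9 genes, 139 to 812 of all genes against 671, 1 to 4 of the conserved targets, and 0 to 1 of the Hippo, junction, TEAD and CCN lists. Without scramble replicates 1, 2 and 3 and siRNA replicate 2, 199, 139, 266 and 356 genes were called. With no filter on low counts, 1312 genes were called, 4 of the 9 genes and 1 junction gene; DESeq2 also called 1 junction gene. The TEAD and VGLL list had 0 calls with upper-quartile factors, at least 10 counts in every library or the replicate block. Upper-quartile factors gave 515 genes higher and 230 lower, against 392 and 279. The causes were not tested.

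Replicate numbers did not pair the libraries: deviations of same-numbered libraries correlated at -0.07, 0.14 and -0.03, and only number 2 matched itself best. With the replicate block 543 genes were called, 3 of the 9 genes among them, *ASAP1* was lost (adjusted p = 0.0549), and both ratios had an exact sign-flip p of 0.25, the smallest for 3 pairs. Counts of 0 to 38 in some libraries limit *ANKRD1* and *CTGF*.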
